A study of Oryza sativa with 12 samples.

Results

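The question here was whether losing the rice genes TAC4 and TAC4L together changed the culm transcriptome by more, or by less, than the separate losses add up to. The measurements were 12 RNA-seq libraries of culms, the jointed stems of grasses, from the japonica cultivar Zhonghua 11 at heading. There were 3 libraries each of wild type (WT), of a line labelled TAC4-KO, of a line labelled TAC4L-KO and of a line labelled TAC4L/TAC4-KO, called double-KO here. Titles call the lines knockouts and the genotype field calls them knockdowns, and neither the edits nor the number of independent lines is given. For each gene an interaction was computed on log2(FPKM + 1), by taking the double-KO, subtracting both single mutants and adding WT back. FPKM is fragments relative to gene length and to library size, as the authors deposited it. An interaction of 0 means that the double-KO equals the sum of both single log2 changes, a negative value that it lies below that sum and a positive value that it lies above. All 19184 genes that averaged 1 FPKM or more were tested, out of 55986 in the table.

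TAC4 takes its name from tiller angle control, the trait that sets how far rice shoots spread from the vertical, and TAC4L is labelled as its relative. Shoot angle depends on gravity sensing, on auxin redistribution across the stem base and on unequal elongation of the 2 flanks. A heading culm is also building the thick secondary walls of cellulose, xylan and lignin that keep it upright, and it stores starch and sugar. When 2 related genes can stand in for each other, a double mutant can show changes that neither single mutant shows, and when they act in one chain it can show no more than one of them. The interaction contrast measures the departure itself and does not separate such cases.

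The transcript levels do not check the labels. TAC4 (LOC_Os02g25230) was at 7.32, 4.75 and 5.59 FPKM in WT, 9.83, 8.22 and 8.36 in the libraries labelled TAC4L-KO, 13.5, 9.13 and 11.5 in those labelled TAC4-KO and 16.5, 15.3 and 13.2 in the double-KO. It was thus higher, not lower, in both groups labelled for its loss, by 0.85 (adjusted p = 0.00622) and 1.23 (adjusted p = 0.000406) on the log2 scale, and its interaction was -0.15 ± 0.27 (SE, adjusted p = 0.735, limma). TAC4L (LOC_Os04g19140) lay between 0.282 and 0.883 FPKM in the 12 libraries, below the level needed for testing, and its groups overlapped. The groups are therefore called by their labels throughout, and every direction below rests on those labels.

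Relative sequencing depth, inferred from the spacing of low FPKM values, ran from 1 in WT replicate 1 to 2.58 in double-KO replicate 2. TAC4L-KO replicate 3 stood apart from its group: on the first principal component (52.8% of the variance) it was at 5.76, near the TAC4-KO libraries at 9.91 to 45.9, against -51.5 and -36 for the other TAC4L-KO libraries. No 2 libraries were identical. Nothing says that replicates came from separate plants, and p-values therefore reflect the spread among these libraries alone, which may be technical. In bulk tissue, fewer cells of a type and less RNA per cell cannot be told apart. Summed over 35 markers of green tissue, all tested and none at 0, the level was 8167 to 16318 FPKM in WT, 13627 to 17030 in TAC4L-KO, 24730 to 30128 in TAC4-KO and 17746 to 22369 in the double-KO. Summed over 4 phloem markers it was 213 to 303 FPKM in WT, 249 to 439 in TAC4L-KO, 429 to 843 in TAC4-KO and 238 to 528 in the double-KO. Summed over 7 markers of dividing cells it was 34.8 to 54.7 FPKM in WT, 27.9 to 40.7 in TAC4L-KO, 21.8 to 30.3 in TAC4-KO and 38.2 to 39.9 in the double-KO. Of the phloem markers 3 passed the filter for testing, and of the dividing-cell markers 4. In each of these sums TAC4-KO lay apart from WT and TAC4L-KO overlapped it. The double-KO lay apart from WT for green tissue alone. The 3 secondary wall cellulose synthases, described below, served as markers of lignified tissue. They summed to 598 to 1039 FPKM in WT, 1008 to 1657 in TAC4L-KO, 501 to 1375 in TAC4-KO and 38.0 to 92.7 in the double-KO. The part of tissue makeup in the results below was not tested.

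The losses did not add up for a sizeable minority of genes, and with the values as deposited the double-KO mostly fell below the sum. Of the genes tested, 2894 (15.1%) departed from additivity (limma, adjusted p under 0.05): 2105 (11%) lay below the sum and 789 (4.11%) above it. Counts of list genes given further on are to be read beside these shares. Among the genes below the sum were the secondary wall cellulose synthases, their regulators, many auxin repressors and 4 clock genes, while 3 genes of starch synthesis, 3 water channels and a floral regulator lay above it. Of the 2105, 1789 had a positive change in both single mutants, and of the 789, 584 had a negative change in both. Over all tested genes 45.3% had positive and 34.5% negative changes in both. The single changes are subtracted in the contrast that chose these genes, so the choice itself favours such signs and the counts are a description only.

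**Figure D1:**
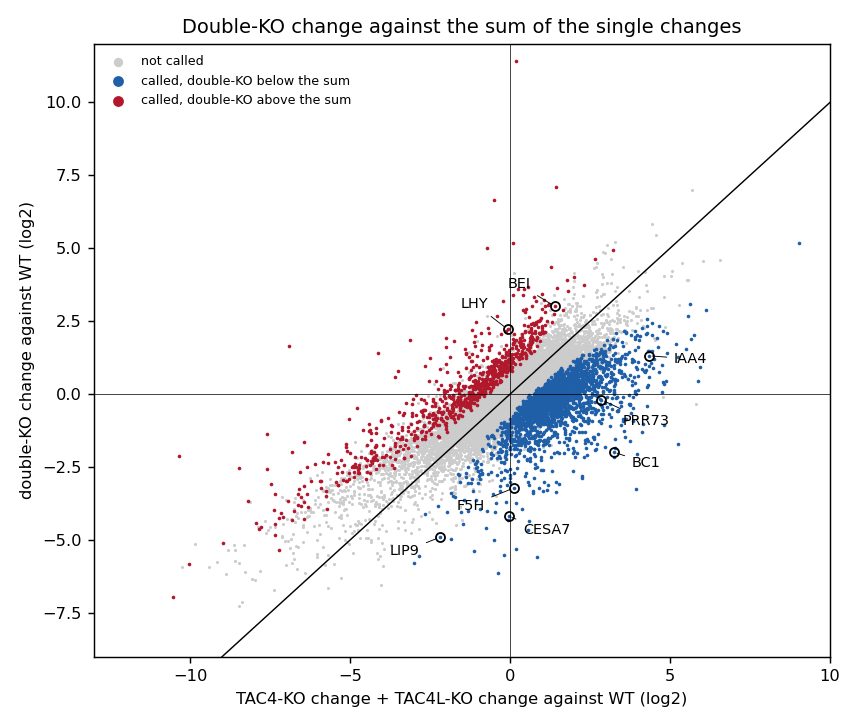
Each point is 1 of 19184 genes, with the sum of the TAC4-KO and TAC4L-KO changes against WT on the x axis and the double-KO change against WT on the y axis (both log2 of FPKM + 1). The diagonal is the additive expectation: with the values as deposited 2105 genes are called below it and 789 above it, a balance that depends on scaling. CESA7 lies far below a sum near 0. The sum on the x axis enters the contrast that chose the called genes, so their place along that axis is a description.

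The balance of directions depends on how libraries are scaled. The median interaction of all genes was -0.19 as deposited, 0.04 after median-of-ratios scaling and near 0 (-0.0004) after quantile normalization, and the share of calls below the sum was 72.7%, 50.8% and 56.8%. Gene by gene the 3 scalings shared 2156 calls of the same sign, 1392 below and 764 above. The contrast is also the least precise of those computed, with a median SE of 0.33 against 0.24 for double-KO against WT. Single libraries moved the count by more than 1.5 times: it was 1469 without TAC4L-KO replicate 2, 1558 without TAC4-KO replicate 1 and 1572 without double-KO replicate 3, against 2004 without TAC4L-KO replicate 3. In every one of the 12 leave-outs, 1324 calls (45.7%) were kept, 1038 below and 286 above.

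The departures took several shapes, set out by which changes against WT were themselves called. Those changes covered 6693 genes (34.9%) in TAC4-KO (4341 without TAC4-KO replicate 3), 18.4% of all tested up and 16.5% down. They covered 1378 (7.18%) in TAC4L-KO, 3.68% up and 3.5% down, a count that was 137 without TAC4L-KO replicate 3, 140 without TAC4L-KO replicate 2, 292 without WT replicate 3, from 849 to 907 without WT replicate 1, TAC4-KO replicate 3, double-KO replicate 1 or double-KO replicate 2, and 2166 without TAC4L-KO replicate 1. They covered 9090 (47.4%) in the double-KO, 20.1% up and 27.3% down. Against the single mutants, the double-KO differed from TAC4-KO in 2883 genes (15%, 4.88% up and 10.1% down) and from TAC4L-KO in 6714 (35%, 11.6% up and 23.4% down). In 787 of the 2894 genes (27.2%) only the double-KO differed from WT, 549 of them below the sum, and this is the pattern of CESA4, CESA7 and CESA9. In 912 genes (31.5%) a single mutant differed from WT and the double-KO did not, 742 of them below the sum, as for the clock gene PRR73. In 508 genes (17.6%) the double-KO moved the same way as the sum of the single changes but short of it, as for the auxin repressor IAA4. The double-KO went beyond the sum in 85 genes (2.94%), among them the starch branching enzyme BEI, and in the opposite direction to it in 102 genes (3.52%), among them the brittle culm gene BC1. In the last 500 (17.3%) no change against WT was called. The size of every class depended on single libraries. Over the 12 leave-outs, double-KO only ranged from 404 to 804, with 459 without TAC4L-KO replicate 2, 479 without TAC4-KO replicate 1 and the lowest without double-KO replicate 3. The class with a single mutant changed and not the double-KO ranged from 497 to 1079, and was 497 to 603 without WT replicate 3, TAC4L-KO replicate 2, TAC4L-KO replicate 3 or TAC4-KO replicate 1. Short of the sum ranged from 218 to 753, and was 218 to 294 without WT replicate 3, TAC4L-KO replicate 2 or 3, TAC4-KO replicate 1 or 3 or any one double-KO library. Beyond the sum ranged from 27 to 111, and was 27 to 56 without any one library other than TAC4L-KO replicate 1 or 3. Opposite to the sum ranged from 51 to 123, and was 51 to 64 without WT replicate 1 or 3, TAC4L-KO replicate 2 or double-KO replicate 1 or 3. The class with no change called ranged from 191 to 747, and was 191 to 259 without TAC4L-KO replicate 2 or 3, TAC4-KO replicate 1 or double-KO replicate 3.

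**Figure D2:**
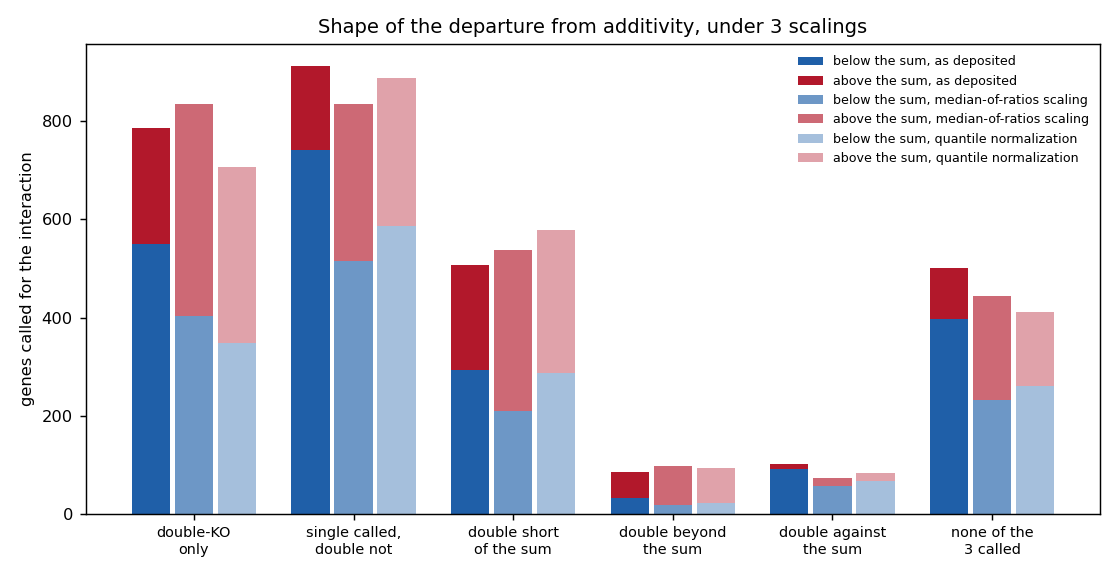
Bars give the number of genes called for the interaction in each of 6 shapes of departure, stacked by direction (blue below the sum, red above), for values as deposited and after 2 rescalings. The class in which a single mutant changed and the double-KO did not was the largest as deposited (912 genes) and after quantile normalization (888), and tied at 835 with the double-KO-only class under median-of-ratios scaling.

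Many departures placed the double-KO outside the range of all other groups. Among all tested genes, 13.9% had all 3 double-KO libraries below the 9 others, and 7.69% had them above. Of the 2105 genes called below the sum, 1309 had a double-KO mean below every other group mean, 754 had no overlap with any other library, and 578 had a mean at least 2-fold below the lowest other group. Of the 789 called above, 436 had the highest mean in the double-KO and 312 had no overlap. The double-KO enters the contrast that chose these genes, so the choice itself favours such places and the counts are a description only. For genes already called on the log2 scale, the same sum taken in plain FPKM had the same sign in 2889 of 2894 (99.8%). Departures in plain FPKM were not tested, so this does not show which genes would be called on that scale.

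The secondary wall cellulose synthases showed the clearest case of a loss seen only in the double-KO. CESA4, CESA7 and CESA9 are the 3 catalytic subunits that spin the cellulose of thickened walls in rice. CESA4 (LOC_Os01g54620) was at 338, 252 and 192 FPKM in WT, 358, 588 and 450 in TAC4L-KO, 487, 168 and 224 in TAC4-KO and 30.4, 37.1 and 15.8 in the double-KO. All double-KO libraries were far below the other 9, TAC4-KO overlapped WT, and every TAC4L-KO library was above every WT library without a call for that change. The sum of the single changes put the double-KO at 474 FPKM, and the interaction was -4.13 ± 0.57 (SE, adjusted p = 0.00135, limma). CESA7 (LOC_Os10g32980) was at 358, 283 and 205 FPKM in WT, 289, 468 and 327 in TAC4L-KO, 382, 146 and 159 in TAC4-KO and 17.8, 19.1 and 8.26 in the double-KO, with an interaction of -4.14 ± 0.56 (adjusted p = 0.00127). CESA9 (LOC_Os09g25490) gave -4.08 ± 0.60 (adjusted p = 0.00189), from 344, 315 and 200 FPKM in WT, 361, 600 and 466 in TAC4L-KO, 506, 187 and 214 in TAC4-KO and 34.2, 36.6 and 14 in the double-KO. The 3 genes followed one another library by library, with TAC4-KO replicate 1 the high library of its group for each. None lost its call in a leave-out or under another scaling.

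**Figure D3:**
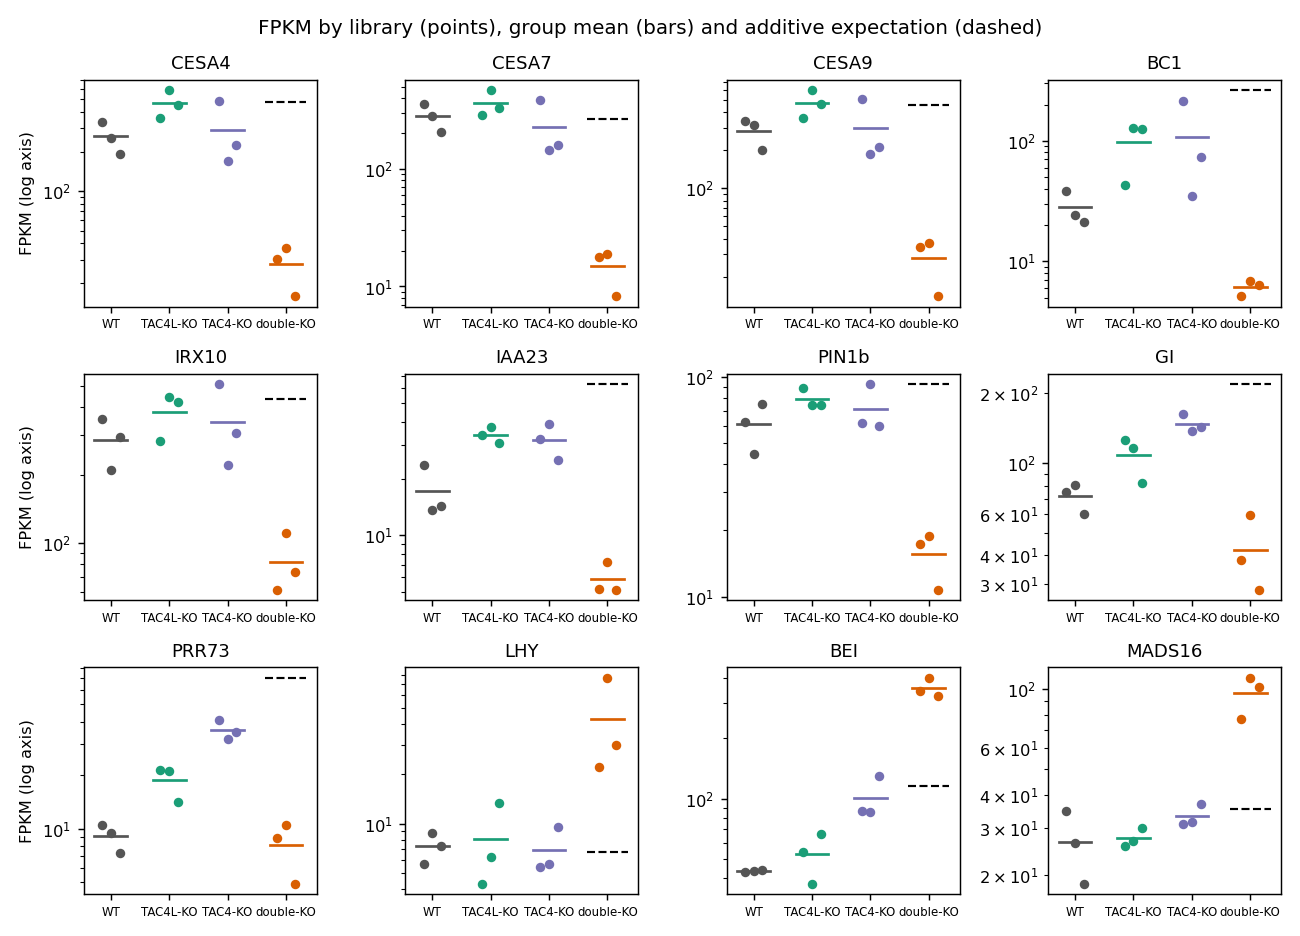
FPKM of 12 genes in each library (points, log axis), with group means as bars and the level that the sum of the single changes gives for the double-KO as a dashed line. For CESA4, CESA7, CESA9, BC1, IRX10, IAA23, PIN1b, GI and PRR73 the double-KO lies below the dashed line, and for LHY, BEI and MADS16 above it.

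Regulators of secondary walls departed with the synthases. Of 5 tested, 4 lay below the sum and none above, with a median interaction of -2.49 against -0.19 for all genes. SWN1 (LOC_Os06g04090), a NAC factor that switches on wall thickening, was at 18, 9.30 and 10.3 FPKM in WT, 14.5, 24.0 and 18.6 in TAC4L-KO, 37.2, 30.8 and 23.7 in TAC4-KO and 6.6, 11.3 and 5.24 in the double-KO. Its level was thus raised in TAC4-KO (1.26, adjusted p = 0.00962) and not called in the double-KO (-0.64, adjusted p = 0.108), for an interaction of -2.49 ± 0.44 (adjusted p = 0.0042, limma). MYB58/63 (LOC_Os04g50770), a lignin pathway activator, had the same shape at a lower level, with group means of 3.79, 3.70, 11.3 and 1.16 FPKM in WT, TAC4L-KO, TAC4-KO and double-KO and an interaction of -2.71 ± 0.60 (adjusted p = 0.0127). The related NAC gene SWN2 (-1.74, adjusted p = 0.0145) and MYB103L (-2.5, adjusted p = 0.0293) were below the sum as well, the latter with its call lost in 8 leave-outs, and MYB61 was not called (-0.52, adjusted p = 0.399).

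Brittle culm genes, whose mutants have stems that snap, gave the lowest interaction of any listed gene. BC1 (LOC_Os03g30250), a COBRA-like wall protein that cellulose assembly requires, was at 38.5, 24.4 and 21.1 FPKM in WT, 43.0, 127 and 127 in TAC4L-KO, 214, 35.1 and 73.0 in TAC4-KO and 5.13, 6.87 and 6.35 in the double-KO. Single mutants were level with or above WT while every double-KO library was below it. Against 264 FPKM from the sum, the interaction was -5.23 ± 0.80 (adjusted p = 0.00216, limma), from single changes of 1.57 in TAC4-KO (adjusted p = 0.0495) and 1.67 in TAC4L-KO (adjusted p = 0.0844) and a double-KO change of -1.99 (adjusted p = 0.0131). BC3 (LOC_Os02g50550), a dynamin-like protein of vesicle traffic, rose in each mutant against WT, and the double-KO was short of the sum by 1.41 ± 0.32 (adjusted p = 0.0151). Of 7 tested brittle culm genes the third call was BC10 (-1.51, adjusted p = 0.0191, lost without TAC4L-KO replicate 2 or TAC4-KO replicate 1), and none was above the sum. The count was 5 without TAC4L-KO replicate 1 or TAC4-KO replicate 2.

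Xylan and lignin genes departed in part. IRX10 (LOC_Os01g70200), which elongates the xylan backbone, was at 357, 210 and 295 FPKM in WT, 282, 445 and 420 in TAC4L-KO, 509, 221 and 306 in TAC4-KO and 61.6, 110 and 73.8 in the double-KO, an interaction of -2.44 ± 0.47 (adjusted p = 0.00667, limma). Like the cellulose synthases, it was low in the double-KO libraries only. IRX9L (LOC_Os01g48440), of the same machinery, gave -1.56 ± 0.34 (adjusted p = 0.0116), and with IRX14 (lost without TAC4L-KO replicate 2 and, at adjusted p = 0.0567, under median-of-ratios scaling) 3 of 8 genes of xylan and mixed-linkage glucan lay below the sum. In the lignin list it was 7 of 22, with a median of -0.58. These shares, 37.5% and 31.8%, stand beside 11% of all tested genes. The lignin count was 2 without TAC4L-KO replicate 2 and 3 without TAC4-KO replicate 1. It was 4 without TAC4L-KO replicate 3, TAC4-KO replicate 3, double-KO replicate 1 or double-KO replicate 3. F5H (LOC_Os10g36848), a ferulate 5-hydroxylase that commits precursors to syringyl lignin, was at 19.1, 12.9 and 11.8 FPKM in WT, 16.3, 17.5 and 23.4 in TAC4L-KO, 21.8, 4.62 and 15.6 in TAC4-KO and 0.760, 0.427 and 0.789 in the double-KO. Its interaction was -3.34 ± 0.58 (adjusted p = 0.00408), again with only the double-KO changed. The ligase gene 4CL1 (LOC_Os08g14760) instead rose in TAC4-KO and was not called in the double-KO, with group means of 2.02, 4.27, 6.81 and 0.981 FPKM in WT, TAC4L-KO, TAC4-KO and double-KO (interaction -2.78 ± 0.38, adjusted p = 0.00135). PAL and other lignin families hold near-identical copies whose reads the authors' counting could have split.

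Some primary wall synthases and tubulins lay below the sum without being lost: none of either list was called lower than WT in the double-KO. CESA3 (LOC_Os07g24190), which makes the cellulose of growing cells, was at 103, 89.1 and 95.3 FPKM in WT, 171, 219 and 291 in TAC4L-KO, 263, 199 and 225 in TAC4-KO and 193, 219 and 174 in the double-KO. All 9 mutant libraries were above WT, by 1.2 (adjusted p = 0.012), 1.24 (adjusted p = 0.0015) and 1.01 (adjusted p = 0.00198), and the double-KO was not above either single mutant, where the sum would give 525 FPKM (interaction -1.43 ± 0.29, adjusted p = 0.00849, limma). With CESA2, 2 of 6 primary wall synthases lay below the sum. Of 11 tubulin genes, which build the microtubules that guide cellulose deposition, 4 lay below the sum (36.4%, against 11% of all tested genes). Among the 11, the names TUBB2 and TUBB5 are uncertain, as the reference places them on another chromosome. The tubulin count was 1 under median-of-ratios scaling and 7 after quantile normalization or without WT replicate 1. None was called without TAC4L-KO replicate 2, TAC4-KO replicate 1 or double-KO replicate 3, 1 without double-KO replicate 1, and 2 without WT replicate 3, TAC4L-KO replicate 3 or TAC4-KO replicate 3. TUBB8 (LOC_Os03g45920), at group means of 33.0, 103, 129 and 69.2 FPKM in WT, TAC4L-KO, TAC4-KO and double-KO, was one of them (interaction -2.56 ± 0.64, adjusted p = 0.0224, lost in 4 leave-outs).

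Auxin genes included 11 calls in the Aux/IAA list, the longest of the hormone lists. Aux/IAA proteins repress auxin response and are themselves induced by auxin. Of 23 tested, 11 (47.8%) lay below the sum and none above, with a median interaction of -1.25. The count was 8 under median-of-ratios scaling, 10 after quantile normalization, 6 without double-KO replicate 3 and 7 without TAC4L-KO replicate 2 or TAC4-KO replicate 1. IAA23 (LOC_Os06g39590) was at 23.6, 13.6 and 14.4 FPKM in WT, 34.1, 37.4 and 30.7 in TAC4L-KO, 32.5, 38.7 and 24.9 in TAC4-KO and 5.20, 7.25 and 5.14 in the double-KO. The 4 groups fell into 3 levels without overlap, both single mutants above WT and the double-KO below it. It rose by 0.99 in TAC4L-KO (adjusted p = 0.0321) and 0.88 in TAC4-KO (adjusted p = 0.0134) and fell by 1.38 in the double-KO (adjusted p = 0.000686), an interaction of -3.25 ± 0.33 (adjusted p = 0.000374, limma). IAA24 (LOC_Os07g08460) had the same order at a higher level, without a call for either single mutant, with group means of 181, 341, 305 and 63.8 FPKM in WT, TAC4L-KO, TAC4-KO and double-KO and an interaction of -3.36 ± 0.57 (adjusted p = 0.00363). IAA4 (LOC_Os01g18360) was raised in all mutants, with means of 8.09, 34.4, 44.1 and 21.8 FPKM in the same order, where the sum would give 173 FPKM (interaction -3.02 ± 0.55, adjusted p = 0.00507).

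Carriers that move auxin between cells differed among themselves, and PIN1b and PIN1a were called lower than WT in the double-KO alone. PIN1b (LOC_Os02g50960), an efflux carrier, was at 62.3, 44.6 and 75.6 FPKM in WT, 88.6, 74.0 and 74.5 in TAC4L-KO, 61.8, 92.9 and 59.4 in TAC4-KO and 17.3, 18.8 and 10.7 in the double-KO. WT and both single mutants overlapped and the double-KO lay apart, with an interaction of -2.53 ± 0.36 (adjusted p = 0.00164, limma). The influx carrier AUX1 (LOC_Os01g63770) was at 182, 130 and 113 FPKM in WT, 228, 263 and 205 in TAC4L-KO, 213, 277 and 220 in TAC4-KO and 120, 99.0 and 102 in the double-KO, an interaction of -1.86 ± 0.29 (adjusted p = 0.00229), with the double-KO overlapping WT and not called against it (-0.38, adjusted p = 0.144). PIN1a was the other carrier below the sum (-2.36, adjusted p = 0.0258, lost in 3 leave-outs). In the other direction, GH3-8 (LOC_Os07g40290), an enzyme that conjugates auxin to amino acids, fell in both single mutants and was not called in the double-KO, with means of 12.5, 1.45, 1.93 and 3.72 FPKM in WT, TAC4L-KO, TAC4-KO and double-KO (interaction 3.14 ± 0.83, adjusted p = 0.0286, lost in 6 leave-outs). The sum would give -0.477 FPKM, a level that no library can reach, so part of this departure was fixed by the scale. PIN10a (1.26, adjusted p = 0.046) and GH3-11 (-0.85, adjusted p = 0.0436) were called near the threshold and lost their calls in 9 and 10 leave-outs, and GH3-11 also under both other scalings. Of 8 tested genes of auxin conjugation and transport, 4 were below the sum (2 without TAC4L-KO replicate 2, double-KO replicate 2 or double-KO replicate 3) and 2 above.

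Gibberellin genes below the sum included steps of synthesis, breakdown and signalling. GID2 (LOC_Os02g36974), the F-box protein that removes the growth repressor SLR1, was at 87.3, 89.0 and 75.1 FPKM in WT, 101, 107 and 115 in TAC4L-KO, 103, 91.0 and 93.9 in TAC4-KO and 60.0, 58.4 and 52.2 in the double-KO. Every single mutant library was above every WT library and every double-KO library below, although the departure was small, at -1.11 ± 0.20 (adjusted p = 0.00528, limma). Only the double-KO change of GID2 against WT was called. SD1 (LOC_Os01g66100), the gibberellin oxidase known from semi-dwarf rice, had group means of 2.00, 3.53, 9.0 and 4.4 FPKM in WT, TAC4L-KO, TAC4-KO and double-KO, short of the sum by 1.52 ± 0.33 (adjusted p = 0.0127). CPS1, which opens the pathway, was called at -2.07 (adjusted p = 0.0163), and 2 catabolic genes, GA2ox6 and GA2ox1, were called but lost their calls in 9 leave-outs each. With these, 5 of 13 gibberellin genes (38.5%, against 11% of all tested genes) were below the sum and none above. The count below it was 3 under either other scaling and without WT replicate 3, TAC4L-KO replicate 3, TAC4-KO replicate 2 or any one double-KO library. Of 10 brassinosteroid genes 2 were below the sum (20%, against 11% of all tested genes). The synthesis gene D11 (LOC_Os04g39430) had means of 5.86, 11.5, 12.1 and 2.75 FPKM and an interaction of -2.89 ± 0.53 (adjusted p = 0.00528), and BRD1 gave -1.66 ± 0.43 (adjusted p = 0.0255, lost in 4 leave-outs). For D11 no change against WT was called in any mutant.

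Strigolactone and tillering genes departed in both directions, 4 of 7 below the sum and 2 above, the highest share called of the hormone lists (85.7%). Strigolactones are carotenoid-derived hormones that hold back tiller outgrowth. D10 (LOC_Os01g54270) and D17 (LOC_Os04g46470) encode the carotenoid cleavage enzymes of their synthesis. D17 was at 3.87, 4.95 and 4.73 FPKM in WT, 5.56, 6.92 and 10.5 in TAC4L-KO, 9.38, 8.70 and 11.8 in TAC4-KO and 3.94, 4.95 and 2.83 in the double-KO, so both single mutants were above WT and the double-KO overlapped it (interaction -1.79 ± 0.33, adjusted p = 0.00552, limma). The D17 change in TAC4L-KO was not called (adjusted p = 0.113). D10, at 4.20, 0.665 and 1.08 FPKM in WT, 2.62, 5.14 and 6.04 in TAC4L-KO, 2.646, 3.85 and 2.88 in TAC4-KO and 0.202, 0.354 and 0.0269 in the double-KO, was low in the double-KO only (-2.83 ± 0.54, adjusted p = 0.00624). The signalling repressor D53 (-1.59, adjusted p = 0.0179) and IPA1 (-1.56, adjusted p = 0.0143), which sets plant architecture, were also below the sum. Above it lay D3 (LOC_Os06g06050), the F-box protein of strigolactone perception (1.22 ± 0.28, adjusted p = 0.0152). Its means were 13.7, 8.35, 5.69 and 8.68 FPKM in WT, TAC4L-KO, TAC4-KO and double-KO. D3 was thus below WT in all mutants, without a call in TAC4L-KO, and the double-KO fell by less than the sum. MOC1, needed for tiller buds, was called at 1.19 (adjusted p = 0.0257, lost in 4 leave-outs).

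Clock genes keep daily time in plant cells, and 4 of 8 lay below the sum and 1 above. Over all tested genes 11% lay below it and 4.11% above. PRR73 (LOC_Os03g17570), a pseudo-response regulator, was at 10.4, 9.49 and 7.26 FPKM in WT, 21.3, 21.1 and 14.1 in TAC4L-KO, 40.7, 31.8 and 34.8 in TAC4-KO and 8.90, 10.5 and 4.90 in the double-KO. The single mutants stood above WT without overlap and the double-KO was back at the WT level, an interaction of -3.03 ± 0.36 (adjusted p = 0.000884, limma). GI (LOC_Os01g08700), which links the clock to flowering, was at 75.0, 80.3 and 60.3 FPKM in WT, 126, 117 and 81.6 in TAC4L-KO, 163, 138 and 144 in TAC4-KO and 38.0, 59.5 and 28.3 in the double-KO (-2.43 ± 0.36, adjusted p = 0.00194). PRR37 (-1.85, adjusted p = 0.0116) and PRR59 (-1.29, adjusted p = 0.03, lost in 6 leave-outs) also lay below the sum. LHY (LOC_Os08g06110), a morning-phase repressor, went the other way: it was at 4.32 to 13.4 FPKM in the 9 other libraries and at 22.0, 76.7 and 30.1 in the double-KO. Its interaction of 2.30 ± 0.63 (adjusted p = 0.0319) lost its call in 8 leave-outs. These genes cycle over the day, the labels give no hour of harvest, and its part in these values was not tested.

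Genes of starch synthesis mostly rose in the double-KO, and 3 of 20 tested were called above the sum and none below. That share, 15%, is near the 15.1% of all tested genes called in either direction, against 4.11% called above. The median interaction was 0.85, and 17 of the 20 rose in the double-KO against WT where 13 rose in TAC4-KO and none in TAC4L-KO was called. Of all tested genes 20.1% were called up in the double-KO and 18.4% in TAC4-KO. BEI (LOC_Os06g51084), a branching enzyme that shapes amylopectin, was at 42.6, 43.5 and 44.1 FPKM in WT, 53.7, 37.4 and 66.7 in TAC4L-KO, 86.7, 85.3 and 129 in TAC4-KO and 345, 404 and 326 in the double-KO. The TAC4L-KO libraries overlapped WT, TAC4-KO stood above both and the double-KO above all, where the sum gave 116 FPKM (interaction 1.61 ± 0.32, adjusted p = 0.00764, limma). PHOH (LOC_Os01g63270), the cytosolic starch phosphorylase, had means of 8.56, 11.1, 38.9 and 128 FPKM in WT, TAC4L-KO, TAC4-KO and double-KO (1.45 ± 0.39, adjusted p = 0.0288, lost in 7 leave-outs), and AGPS1 was the other call (1.12, adjusted p = 0.0322, lost in 6). The list count was 7 without TAC4-KO replicate 3, 1 without TAC4L-KO replicate 2, TAC4-KO replicate 1, TAC4-KO replicate 2 or double-KO replicate 1, and 5 and 4 under the other scalings. The largest rise of the list, that of AGPL1 from a mean of 50.5 FPKM in WT to 6328 in the double-KO, was not called as beyond the sum (1.28 ± 0.67, adjusted p = 0.206), with TAC4-KO alone at 1424 FPKM.

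Sucrose genes were mixed, with 4 of 15 below the sum (2 without TAC4L-KO replicate 2, double-KO replicate 1 or double-KO replicate 3) and 1 above. The shares over all tested genes were 11% below and 4.11% above. The sucrose synthases SUS5 (LOC_Os04g24430) and SUS6 (LOC_Os02g58480), which cleave sucrose for wall and starch building, were low in every group. SUS5 was at 1.71, 1.41 and 1.70 FPKM in WT, 3.21, 2.96 and 2.78 in TAC4L-KO, 6.41, 2.16 and 3.02 in TAC4-KO and 0.456, 0.947 and 0.796 in the double-KO. Its interaction was -2.02 ± 0.38 (adjusted p = 0.00582, limma). The single mutants were on top and the double-KO at the bottom, but of the changes against WT only TAC4-KO was called (adjusted p = 0.0352). TAC4L-KO (adjusted p = 0.154) and the double-KO (adjusted p = 0.0846) were not. SUS6 gave -1.71 ± 0.35 (adjusted p = 0.00896). SUS7 and the transporter SUT1 were the other calls below, lost in 4 and 10 leave-outs, and the vacuolar invertase INV3, with means of 106, 15.4, 5.33 and 6.55 FPKM in WT, TAC4L-KO, TAC4-KO and double-KO, was the call above (2.74, adjusted p = 0.0164). For INV3 the sum lay near the bottom of the log2(FPKM + 1) scale, where a lower double-KO could hardly be measured. The glucan, water dikinase gene GWD1, of starch breakdown, was called at 1.15 ± 0.32 (adjusted p = 0.0351, lost in 10 leave-outs).

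Photosynthesis genes rose in TAC4-KO, and where a departure was called the double-KO lay below the sum. Of 26 genes of the light reactions, 23 rose in TAC4-KO, none in TAC4L-KO was called and 18 rose in the double-KO. Of all tested genes 18.4% were called up in TAC4-KO and 20.1% in the double-KO. The interaction had a median of -1.16 in this list. It was called below the sum for 6 genes with the deposited values (23.1%, against 11% of all tested genes). The count was 1 after median-of-ratios scaling and 8 after quantile normalization. None was called without TAC4-KO replicate 2, TAC4-KO replicate 3, double-KO replicate 1 or double-KO replicate 3, 1 without WT replicate 3 or TAC4L-KO replicate 3, and 3 without TAC4L-KO replicate 1 or TAC4-KO replicate 1. PsbR (LOC_Os07g05360), a subunit of photosystem II, was at 71.4, 75.6 and 42.4 FPKM in WT, 129, 133 and 314 in TAC4L-KO, 578, 547 and 543 in TAC4-KO and 325, 590 and 163 in the double-KO. TAC4L-KO replicate 3 was the high library of its group here. The interaction was -2.32 ± 0.63 (adjusted p = 0.0304, limma, lost in 7 leave-outs), and PsaK of photosystem I gave -1.88 ± 0.51 (adjusted p = 0.0313, lost in 6 leave-outs and at adjusted p = 0.0582 under median-of-ratios scaling). Among 9 genes of carbon fixation GAPB was the single call (-1.08 ± 0.30, adjusted p = 0.0327), and that call was lost under median-of-ratios scaling and in 8 leave-outs. That share, 11.1%, is near the 11% of all tested genes called below the sum. None of 13 genes of chlorophyll synthesis was called, YGL1 having the smallest p (-0.99 ± 0.33, adjusted p = 0.0655).

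Of 5 tested water channels 4 fell in TAC4-KO, and for 3 of these the double-KO lay above the sum, while in the double-KO 2 were called lower than WT and 1, PIP2;6, higher. PIP1;2 (LOC_Os04g47220), a plasma membrane aquaporin, was at 731, 587 and 487 FPKM in WT, 386, 497 and 601 in TAC4L-KO, 175, 147 and 121 in TAC4-KO and 338, 254 and 372 in the double-KO. The double-KO lay between TAC4-KO and the other 2 groups without overlap, where the sum gave 120 FPKM (interaction 1.40 ± 0.34, adjusted p = 0.0184, limma). That call was lost without double-KO replicate 3 and after quantile normalization (adjusted p = 0.0587). Over all tested genes 4.11% were called above the sum, 16.5% down in TAC4-KO, and 27.3% down and 20.1% up in the double-KO. With PIP2;1 (1.00 ± 0.28, adjusted p = 0.0335) and PIP2;2 (1.21 ± 0.34, adjusted p = 0.0335), 3 of 5 tested aquaporins were above the sum and none below, but 0 without double-KO replicate 3, and 1 after quantile normalization or without WT replicate 2, TAC4L-KO replicate 2, TAC4-KO replicate 1 or TAC4-KO replicate 3.

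Among the listed genes, few other regulators were called above the sum. MADS16 (LOC_Os06g49840), a floral homeotic gene of petal-like and stamen organs, was at 34.8, 26.4 and 18.5 FPKM in WT, 25.7, 26.9 and 30.1 in TAC4L-KO, 31.2, 31.7 and 36.9 in TAC4-KO and 77.1, 111 and 102 in the double-KO. It was high in the double-KO alone (1.40 ± 0.31, adjusted p = 0.0131, limma). Of 10 floral MADS-box markers it was the single one with enough signal for testing. Their summed level was 18.7 to 35.1 FPKM in WT and 78.6 to 112 in the double-KO, with 2 of the 10 at 0 in all double-KO libraries. MADS16 itself made up nearly all of that sum in both groups, so the sum adds little to the rise of this gene. The part of floral tissue was not tested. The flowering activator MADS50 was the other of 2 calls among 12 flowering genes (0.85 ± 0.27, adjusted p = 0.0497, lost in 11 leave-outs). That share, 16.7%, is near the 15.1% of all tested genes called in either direction, against 4.11% called above. Among 14 jasmonate genes the median interaction was the highest of any list, 1.59, but MYC2 (LOC_Os10g42430), the hormone's master regulator, was the single call (1.28 ± 0.39, adjusted p = 0.045, lost in 8 leave-outs). The SE of an interaction in this list reached 1.30, for TIFY11d, and the list count was 8 without TAC4L-KO replicate 1.

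**Figure D4:**
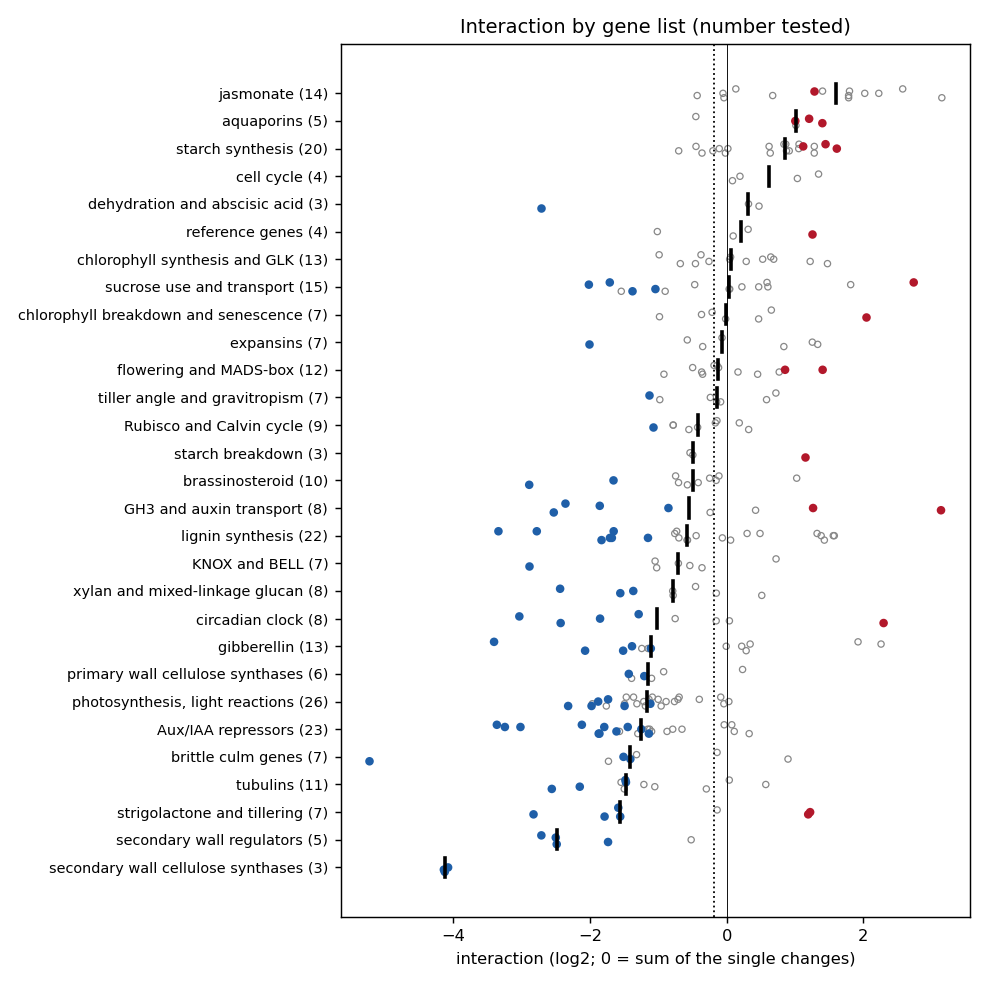
Interaction (log2) of every tested gene in 29 lists, with filled points for called genes (blue below, red above the sum), open points for the others, a bar at each list's median and a dotted line at the median of all genes (-0.19). The secondary wall cellulose synthases lie at -4.13 at the bottom, and the jasmonate list has the highest median, 1.59, with 1 called gene.

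Genes of tiller angle itself were called at about the share of all genes. Of 7 tested, 1 (14.3%, against 15.1% of all genes) was called, below the sum, LPA1 (-1.14, adjusted p = 0.0179, lost without TAC4L-KO replicate 2 or TAC4-KO replicate 1), a name that the reference places on another chromosome and that is therefore uncertain. TAC3 (LOC_Os03g51670) had means of 2.06, 3.57, 3.70 and 2.66 FPKM in WT, TAC4L-KO, TAC4-KO and double-KO and was not called (-0.98 ± 0.31, adjusted p = 0.0564). LAZY1, the gravity signalling gene, fell by 1.23 in TAC4L-KO, by 2.09 in TAC4-KO and by 2.73 in the double-KO, all called, and its interaction was not called (0.58 ± 0.32, adjusted p = 0.228). Its mean in the double-KO was 0.0705 FPKM, at the bottom of the log2(FPKM + 1) scale, where a further fall could not be measured.

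For some genes the effect of losing one TAC4 gene turned round once the other was gone. Losing TAC4L had called effects of opposite sign in WT and in the TAC4-KO background for 240 genes (1.25%), and 212 of these rose in WT and fell in the TAC4-KO background. Losing TAC4 did so for 408 genes (2.13%), and 359 of these rose in WT and fell in the TAC4L-KO background, and 153 genes turned for both. IAA23 and PRR73 are in that last group. For IAA23, losing TAC4L moved the level by 0.99 in WT and by -2.26 in the TAC4-KO background, and losing TAC4 by 0.88 in WT and by -2.36 in the TAC4L-KO background. SH5 (LOC_Os05g38120), a BELL-type homeobox gene, turned for TAC4L loss, from 1.72 in WT to -1.18 in the TAC4-KO background (adjusted p = 0.0396), with 24.0, 14.8 and 6.54 FPKM in WT, 39.0, 51.0 and 50.3 in TAC4L-KO, 76.1, 76.7 and 57.5 in TAC4-KO and 30.3, 35.6 and 25.5 in the double-KO. The TAC4L count was 182 and 235 under the other scalings but depended on single libraries: it was 22 without TAC4L-KO replicate 2, 29 without TAC4L-KO replicate 3, 54 without WT replicate 3, 116 without double-KO replicate 3, 145 without double-KO replicate 1, 149 without double-KO replicate 2, 156 without TAC4-KO replicate 1 and 365 without TAC4L-KO replicate 1. The TAC4 count was 371 and 372 under the other scalings, and 223, 240 and 242 without TAC4L-KO replicate 2, TAC4-KO replicate 1 or double-KO replicate 3.

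**Figure D5:**
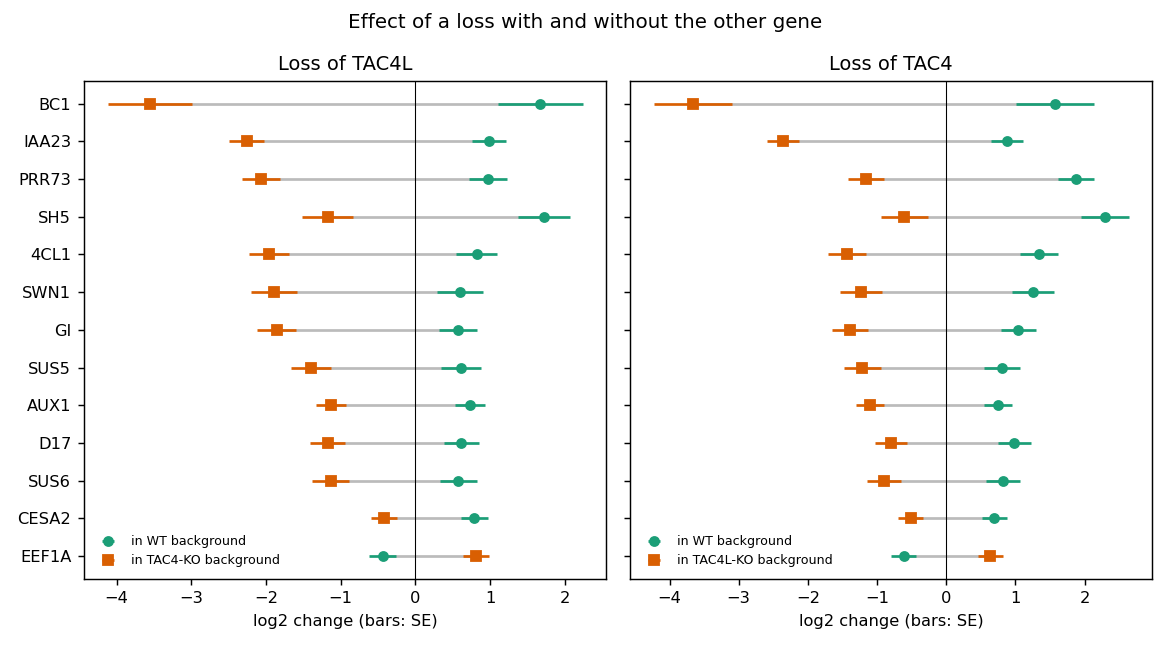
Change in log2(FPKM + 1) on losing TAC4L (left) and TAC4 (right), in WT (circles) and with the other gene already lost (squares), for 13 named genes whose effect turned sign for at least 1 of the 2 losses, with bars for the SE. For all but EEF1A the value is positive in WT and negative in the mutant background, and the span between them, the interaction, is widest for BC1 (-5.23).

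Outside the lists the extreme loci are known here by identifier only. LOC_Os09g36680 was listed at 0 in 6 of the 9 libraries of the other groups and reached at most 0.687 FPKM there, against 1117, 4993 and 3957 FPKM in the double-KO, an interaction of 11.22 ± 0.62 (adjusted p = 1.04e-05, limma). It passed the filter of 1 FPKM only through the double-KO, the group where it is high, so its values are a description. LOC_Os07g10840 was at 26.3, 25.2 and 152 FPKM in WT, 1.70 to 4.21 in TAC4L-KO, 2.98 to 7.96 in TAC4-KO and 109, 146 and 209 in the double-KO, thus low in both single mutants only (8.54 ± 0.84, adjusted p = 0.000311). Its single changes sum to a level below 0 FPKM, which no library can reach. LOC_Os01g62480 was the reverse, at 9.82, 8.25 and 7.44 FPKM in WT, 40.8, 67.6 and 50.9 in TAC4L-KO, 106, 37.7 and 62.8 in TAC4-KO and 1.28, 4.57 and 0.966 in the double-KO (-6.95 ± 0.58, adjusted p = 0.000163). LOC_Os01g70830, at 7.79, 18.8 and 8.07 FPKM in WT, 40.2, 119 and 78.0 in TAC4L-KO, 111, 14.6 and 12 in TAC4-KO and 0.192, 0.0880 and 0.384 in the double-KO, had the lowest called interaction, -7.19 ± 0.97 (adjusted p = 0.00127). These 4 kept their calls in every leave-out and under both other scalings.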

How the data were processed

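The authors deposited one table of FPKM values per gene and library. The submitters' processing notes name HISAT2 without a version. The sources used here name no quantifier, build, annotation or strandedness. Libraries came from fragmented poly(A) RNA primed with random hexamers, per the labels' protocols. Without strand, a gene and an antisense partner cannot be told apart. No counts were used, so depth is known only relative to the shallowest library.

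Genes averaging 1 FPKM or more were fitted as log2(FPKM + 1) with limma 3.58.1 (R 4.3.3, trended prior), all 12 libraries and 4 group means in one fit with 8 residual degrees of freedom, with Benjamini-Hochberg adjustment over all 19184 genes. Calls were made below an adjusted p of 0.05. Fold changes are on this scale, which understates low genes. Simulated data with known interactions were used to check the fit. Those interactions were large, so the check does not cover calls of smaller ones. A level from the sum is WT plus both single changes, converted back to FPKM. With 3 libraries against 3 an exact permutation test cannot go below p = 0.1.

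Members, the 29 gene lists and their genes were chosen with earlier results of these data known, so their counts are descriptions beside those of all genes, with no test of the lists. Named were TAC4, TAC4L, the secondary wall CESA genes, the 12 highest and 12 lowest called list genes whose symbol the reference places on the chromosome of the locus or that have family names, up to 2 called genes of each list by smallest p (1 uncalled where none was called), and by identifier the 2 highest and 2 lowest called loci outside the lists. Other genes, named to complete a count or as examples, were chosen after their values were seen. Names were paired with identifiers from published rice nomenclature: 0 of 55986 identifiers matched the reference (ASM3414082v1), which places 234 of 370 list symbols on the stated chromosome and 4 on another, while 98 were not found and 34 were family names. For 2 list genes the locus was not in the table. Alternatives were the pseudocount, filter, scaling, prior, library weights, replicate block, fold threshold and leaving out each library.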

Additional observations from a re-analysis of the deposited data

Results flagged for a closer look

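Effects of one loss that differed in sign with the state of the other gene were found for 240 genes (TAC4L loss) and 408 genes (TAC4 loss), with both effects and the interaction past the threshold in limma. Of the named genes these were, with their interactions on the log2 scale, BC1 at -5.23, IAA23 at -3.25, PRR73 at -3.03, SH5 at -2.90, 4CL1 at -2.78, SWN1 at -2.49, GI at -2.43, SUS5 at -2.02, AUX1 at -1.86, D17 at -1.79, SUS6 at -1.71 and CESA2 at -1.21. EEF1A, a translation elongation factor often used as a reference gene, was the reverse at 1.25: it was at 478, 388 and 458 FPKM in WT, 334, 314 and 323 in TAC4L-KO, 236, 321 and 311 in TAC4-KO and 548, 432 and 541 in the double-KO. Among loci outside the lists the effect turned for LOC_Os07g10840 at 8.54, LOC_Os01g70830 at -7.19 and LOC_Os01g62480 at -6.95. The interaction of EEF1A was 1.52 under median-of-ratios scaling and 1.07 after quantile normalization.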

How the results depend on the processing

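The number of genes departing from additivity was 2894 and lay between 2209 and 3150 under other pseudocounts, filters, scalings and priors and with a 2-fold minimum. Estimated library weights raised it to 4972 (1795 above and 3177 below the sum) and TAC4L-KO against WT to 4016. The count above the sum was 1386 under median-of-ratios scaling and 1192 after quantile normalization. TAC4L-KO against WT gave 856 with no filter, and a 2-fold minimum gave 3619 genes for TAC4-KO, 906 for TAC4L-KO and 5139 for the double-KO against WT. Leaving out 1 library gave 1469 to 3250 departures, 333 to 973 above and 1136 to 2526 below the sum, and against WT 4341 to 6773 genes for TAC4-KO, 137 to 2166 for TAC4L-KO and 7344 to 9113 for the double-KO. Such fits have fewer samples, and causes were otherwise not tested. Replicate numbers gave no clear pairing of the libraries. Of 18 same-numbered pairs 4 had deviations correlated above 0.1 (range -0.43 to 0.27, other pairs -0.43 to 0.46). Library names carry other numbers, and pairing by those was not tested. With the replicate number as a block, 2328 genes departed, 2212 of them shared, and TAC4L-KO against WT gave 665. Of 60 named genes tested, 56 were called and 36 kept the call in all 12 leave-outs. Of their 1309 values under other settings 1115 kept the call or its absence, 184 lost it, 10 gained it and 0 changed direction. The list and sign-turn counts without single libraries were chosen after seeing the data.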

Other observations

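Genes of drought response and senescence were measured too. LIP9 (LOC_Os02g44870), a dehydrin that builds up in drying tissue, was at 1729, 1045 and 1002 FPKM in WT, 1872, 960 and 347 in TAC4L-KO, 338, 758 and 213 in TAC4-KO and 34.5, 45.8 and 39.6 in the double-KO. It lay below the sum (interaction -2.71 ± 0.79, adjusted p = 0.0395, limma), a call lost in 9 leave-outs and under median-of-ratios scaling (adjusted p = 0.0653). The other 2 tested dehydration genes, SALT and NCED3, were not called. NAP (LOC_Os03g21060), a NAC factor of leaf senescence, had means of 8.72, 3.52, 0.377 and 2.01 FPKM in WT, TAC4L-KO, TAC4-KO and double-KO and lay above the sum (2.03 ± 0.61, adjusted p = 0.0442, lost in 10 leave-outs). The sum would give -0.283 FPKM, a level that no library can reach, so part of this departure was fixed by the scale. EXPA4, a wall-loosening expansin, was below the sum (-2.02 ± 0.56, adjusted p = 0.0325, lost in 7 leave-outs) and was the single call of 7 expansins (14.3%, against 15.1% of all tested genes). None of 4 cell cycle genes was called: PCNA, the replication clamp, had the smallest p, with means of 15.8, 12, 9.30 and 19.5 FPKM (1.34 ± 0.43, adjusted p = 0.0568). Of 19184 genes, 6334 had an unadjusted p under 0.05 for the interaction.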
